A study of Danio rerio with 4 samples.

Results

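Narrow stable H3K27ac sites are short acetylated regions that were called in every library of the regenerating zebrafish heart. Relative to the median site called in every library, their peak height differed little between hearts with inhibited AP-1 and control hearts. Peaks of all 4 deposited lists were merged where they overlapped by at least 1 bp. Sites were kept if all 4 lists called them and if they lay on chromosomes 1 to 25, without chromosome 4 from 30 Mb on. The height of a site in a library was the log2 of its maximum coverage minus the median of that list over the kept sites, termed here the centred log2 maximum. A site was a member if the mean of this height over the FB:dnAP-1 libraries and the mean over the control libraries differed by less than 0.5 and if the merged site was at most 2500 bp wide. The rule gave 1761 members among 15296 such shared sites, 44043 merged sites on these chromosome parts and 51678 merged sites in all. Members were thus chosen by the maximum coverage in all 4 libraries and by width, and both are given as a description without a test. Shared sites wider than 2500 bp are called wide, and those with a difference of at least 0.5 changed. The shared sites outside the set were 321 narrow changed, 10091 wide stable and 3123 wide changed sites.

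H3K27ac was profiled by CUT&Tag in noncardiomyocytes (nonCMs) freshly isolated from the injury area of adult hearts, 7 days after apex resection, in 2 FB:dnAP-1 and 2 control libraries. FB:dnAP-1 fish carried TgBAC(tcf21:Cre-ERT2) and a second transgene in which the *ubb* promoter drives dsRed between loxp sites and, once Cre has removed it, a Flag-tagged dominant-negative AP-1 (dnAP-1). They received 4-hydroxytamoxifen before the resection, so that dnAP-1 was made in epicardial cells and fibroblasts (Epi/FBs). The labels call the control libraries CTRL and WT, while the methods describe controls of such lines as double transgenic fish given ethanol vehicle. Replicates were described as biological duplicates, and the number of fish pooled per library was not given in the sources used here. Cre was driven by *tcf21*, a marker of the epicardium and fibroblasts, whereas the chromatin came from all nonCMs, so fewer cells of one type and less acetylation per cell cannot be told apart. Marker loci of the labelled cell type were not analysed here, because a gene annotation of GRCz11 was not used.

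Acetylation of histone H3 at lysine 27 marks nucleosomes at active promoters and enhancers. In CUT&Tag an antibody guides a transposase to such nucleosomes, and the DNA around them is cut, tagged and sequenced. Broad acetylated domains often form around genes that define a cell's identity, whereas short ones are found at single promoters or enhancers. AP-1 is a dimer of Jun and Fos family proteins that binds enhancers in activated cells and works there together with other factors such as Tead proteins.

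The number of peaks called was 38429 and 32978 in FB:dnAP-1 hearts and 32638 and 33076 in control hearts, with replicate 1 given before replicate 2 here and in all pairs of values that follow. Every maximum was a whole multiple of a step of 0.68 in both FB:dnAP-1 lists, of 1.26 in control replicate 1 and of 1.38 in control replicate 2. The step contains the factor by which the authors scaled each library. Subtracting the list median from log2 values removes any such factor, so membership did not depend on it. It also removes any difference in acetylation common to all shared sites. Stable thus means little changed relative to the median shared site, and a global change cannot be seen on this scale. The lists give no number of reads, so the depth of a library is unknown and no counting interval was computed.

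Members were mostly of medium peak height among the shared sites. Among all peaks of a list they were high. Their median maximum stood at percentile 78.6 and 76.6 of the FB:dnAP-1 lists and 77.6 and 76.3 of the control lists. The median maximum coverage of the members was 43.52 in both FB:dnAP-1 libraries, against 36.54 in control replicate 1 and 30.36 in control replicate 2. Counted in steps, these medians were 64 and 64 in FB:dnAP-1 hearts and 29 and 22 in control libraries. The control maxima thus comprised fewer steps in each library. On the centred log2 scale the medians were 0.14 and 0.17 in FB:dnAP-1 hearts and 0.16 and 0.14 in control hearts, so a typical member stood slightly above the median shared site in all 4 libraries. Averaged over libraries, the centred height of a member ranged from -1.21 to 2.60, with quartiles of -0.21 and 0.52. Of the members, 1071 (60.8%) stood above the median shared site, 124 (7.04%) were among the highest 10% of shared sites and 2 (0.114%) among the lowest 10%. Members were thus rare at the low end of the range of shared sites and only somewhat under 10% at the high end. The quartiles of all shared sites were -0.60 and 0.52, so the upper quartile was about the same.

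**Figure D1:**
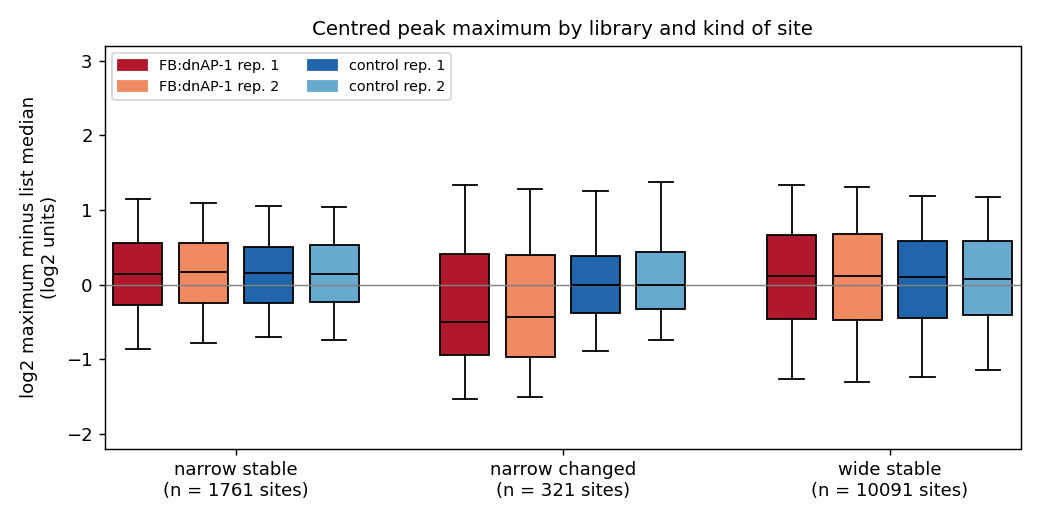
Centred log2 maximum of each library (boxes from the first to the third quartile, whiskers at the 5th and 95th percentile, line at the median) at 1761 narrow stable, 321 narrow changed and 10091 wide stable sites. The 4 boxes of the narrow stable sites lie at about the same height, with medians between 0.14 and 0.17, as the rule requires.

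A floor on the height comes with the lists. A peak enters a list by its total signal, which is coverage summed over its bases. The weakest peak kept had a total of 7490 and 9203 in the FB:dnAP-1 lists, against 12993 and 10480 in the control lists. A peak of 2500 bp needs a mean coverage of at least 3.00 and 3.68 in FB:dnAP-1 hearts to reach that total, and of 5.20 and 4.19 in control hearts. The mean coverage of the members had medians of 13.0 and 13.2 in FB:dnAP-1 hearts and of 12.3 and 10.7 in control hearts, above the medians of all shared sites, which were 8.54 and 8.42 in FB:dnAP-1 hearts and 8.78 and 8.18 in control hearts. Many members still lay near the threshold. Of the members, 25.9% and 32.7% had less than 2 times the weakest total in the FB:dnAP-1 lists, against 77.4% and 71.9% in the control lists. For all shared sites these shares were 22.4% and 24.8% in FB:dnAP-1 hearts and 44.9% and 43.2% in control hearts.

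Most narrow sites were not called in every library. Of the 10112 merged sites up to 2500 bp wide on these chromosomes, 4522 were called in 1 list, 2248 in 2, 1260 in 3 and 2082 in all 4. The last number is 20.6% of the narrow sites, against 38.9% of the 33931 wider ones. Merging over more lists widens a site by construction, so the 2 shares are not independent of the width. Of the 2082 narrow shared sites, 1761 were members (84.6%), while 77.5% of all shared sites had a difference below 0.5. The share of stable sites was 81.1% up to 1500 bp, 85.1% from there to 2000 bp and 84.7% from there to 2500 bp. It was 73.8% among sites wider than 6000 bp. Only sites above the threshold of all 4 lists enter these shares, and members lay near it more often than shared sites did. How far this sets the share of stable sites was not tested. Without control replicate 1, when 3 lists suffice, the same rule gave 2790 members.

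Members were simple peaks. Each of the 4 lists had exactly 1 peak at every member, whereas between 79.7% and 89.3% of the wide stable sites had a single peak in a given list. A site of at most 2500 bp leaves little room for 2 peaks of a list, so this contrast is tied to the width rule. Members were 928 to 2500 bp wide, with a median of 2105 bp. The peak of a single list was narrower, with a median width of 1549 and 1718 bp in FB:dnAP-1 hearts, against 1688 and 1664 bp in control hearts. The group means were 1633.5 ± 120 bp in FB:dnAP-1 hearts and 1676 ± 17.0 bp in control hearts (SD, n = 2 each), a difference smaller than the SD of the FB:dnAP-1 libraries. The median share of a merged member that the peak of one list covered was 78.3% and 86.8% in FB:dnAP-1 hearts and 84.8% and 83.5% in control hearts.

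All chromosomes held members, from 37 on chromosome 22 to 107 on chromosome 5. As a share of the shared sites of a chromosome, members made up between 8.35% on chromosome 22 and 14.3% on chromosome 23.

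The highest member lay on chromosome 3 of GRCz11, from 8491490 to 8492970, and was 1481 bp wide. Its maximum coverage was 250.24 and 194.48 in FB:dnAP-1 hearts, against 210.42 and 184.92 in control hearts. On the centred log2 scale its heights were 2.67 and 2.33 in FB:dnAP-1 hearts and 2.68 and 2.74 in control hearts. The groups overlapped on the deposited scale but not on the centred one, where both FB:dnAP-1 heights were lower and the difference was -0.22 (FB:dnAP-1 minus control). It ranked 45 among all shared sites by mean centred height. The other members of the top 8 ranked between 80 and 156. The positions of its maximum in the 4 libraries spanned 0.0 bp, and no other shared site had its middle within 50 kb of it.

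The second highest, on chromosome 1 from 45925019 to 45926825, reached 135.32 and 176.12 in FB:dnAP-1 hearts against 118.44 and 84.18 in control hearts. On the centred log2 scale the groups overlapped there, with 1.78 and 2.18 in FB:dnAP-1 hearts and 1.85 and 1.61 in control hearts. The one ranked next, on chromosome 10 from 20589524 to 20591678, reached 170.68 and 136.68 in FB:dnAP-1 hearts against 109.62 and 80.04 in control hearts. Its centred heights did not overlap, at 2.11 and 1.82 in FB:dnAP-1 hearts and 1.74 and 1.54 in control hearts. The second and the third highest both lay beside a wide stable site, at edge-to-edge distances of 835 and 590 bp. The next 5 lay on chromosomes 6, 15, 17 and 8, the last of these with 2 of them. The fourth, from 11396984 to 11399325 on chromosome 6, had maxima of 122.40 and 148.24 in FB:dnAP-1 hearts and 119.70 and 85.56 in control hearts. After centring its groups overlapped, with 1.63 and 1.94 in FB:dnAP-1 hearts and 1.87 and 1.63 in control hearts. The sixth, from 13071227 to 13073612 on chromosome 17, had 110.84 and 138.72 in FB:dnAP-1 hearts and 110.88 and 102.12 in control hearts. Its centred heights of 1.49 and 1.84 in FB:dnAP-1 hearts also overlapped those of 1.76 and 1.89 in control hearts. Control replicate 2 was the lowest library at all 8 in deposited units, in which its median over the shared sites was also the lowest, at 27.6. After centring it was the highest library at the first and the sixth of these sites.

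**Figure D2:**
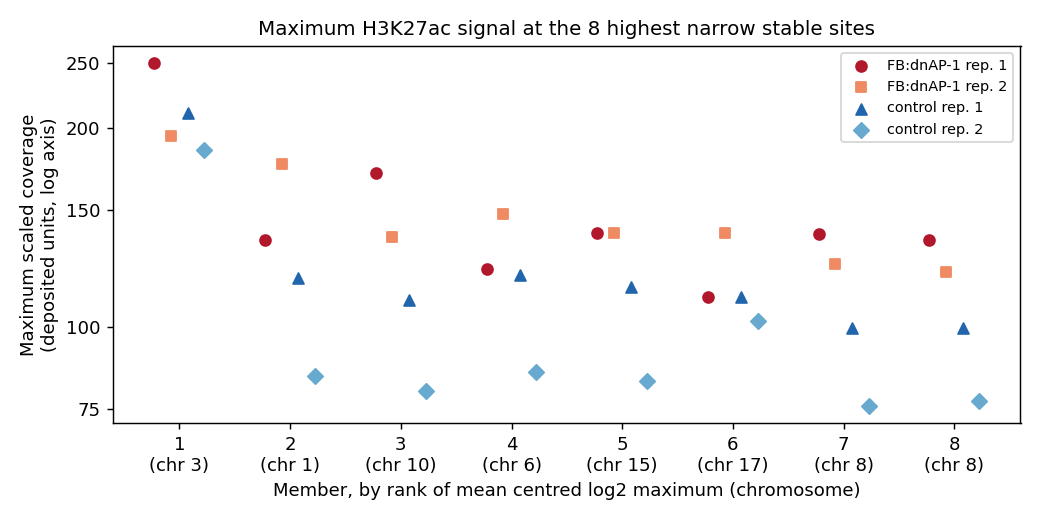
Maximum scaled coverage (deposited units, log axis) of the 4 libraries at the 8 members with the highest mean centred log2 maximum, in order of rank. The first member stands apart with 184.92 to 250.24 in the 4 libraries, and control replicate 2, whose list also has the lowest median in these units, is the lowest point at each of the 8.

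Open chromatin regions of Epi/FBs that the study had assigned to genes were used to name members, because no other GRCz11 annotation was used here. The study's legend describes the list as regions that overlap candidate regeneration enhancers already known. Of the 1999 regions read, 626 overlapped a merged site, against 293 once they were moved by 500 kb, and GRCz11 was assumed for them on that basis. In 11 members such a region was found, and each name below is that assignment, not a measured target. The share of all shared sites with a region was not computed, and moved regions were not counted at members. Some of the 11 may thus hold a region by position alone. The highest of them held a region of *lims1*, which encodes an adaptor of the integrin-linked kinase complex at focal adhesions. It lay on chromosome 11 from 33612602 to 33614522, with maxima of 76.84 and 64.60 in FB:dnAP-1 hearts and 55.44 and 38.64 in control hearts. On the centred log2 scale the groups overlapped, with 0.96 and 0.74 in FB:dnAP-1 hearts and 0.76 and 0.49 in control hearts. The centred difference was 0.23. At the member with a region of *kiz*, a gene for a centrosomal protein, the maxima were 72.76 and 63.24 in FB:dnAP-1 hearts and 49.14 and 41.40 in control hearts, on chromosome 17 from 41990992 to 41993264. These were the 2 of the 11 with a mean centred height above 0.00, at 0.74 and 0.69.

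The member of *vim* was the narrowest of the 11, at 1332 bp on chromosome 24 from 32175955 to 32177286. *vim* encodes vimentin, an intermediate filament protein of mesenchymal cells. Its maxima were 36.04 and 34.00 in FB:dnAP-1 hearts, inside the range of the controls at 41.58 and 23.46, and the control replicates differed there by 0.58 on the centred log2 scale. The member of *rsad2*, an interferon-induced antiviral gene, had 38.08 and 29.92 in FB:dnAP-1 hearts and 35.28 and 27.60 in control hearts. It lay on chromosome 17 from 35605265 to 35607156 and was sharply peaked, with a mean ratio of maximum to mean coverage of 4.23. The member of *rbp4*, the gene of a retinol carrier, had 28.56 and 29.24 in FB:dnAP-1 hearts and 32.76 and 19.32 in control hearts, on chromosome 12 from 5119034 to 5121029. The groups overlapped on both scales at the members of *vim* and *rbp4*. At that of *rsad2* they overlapped only in deposited units, and the centred heights were -0.05 and -0.37 in FB:dnAP-1 hearts and 0.11 and 0.00 in control hearts.

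Regions of 2 genes for RNA-binding regulators of splicing also lay in members. The member of *nova2* had maxima of 41.48 and 45.56 in FB:dnAP-1 hearts and 27.72 and 24.84 in control hearts, and its centred difference of 0.35 was the largest positive one of the 11. It lay on chromosome 15 from 28728381 to 28730229. The member of *celf2*, on chromosome 4 from 24102775 to 24104428, had 24.48 and 28.56 in FB:dnAP-1 hearts and 28.98 and 17.94 in control hearts, with a difference of -0.17. The member of *foxi1*, a forkhead factor gene needed for the otic placode in zebrafish, had a difference of 0.17. Its maxima were 41.48 and 39.44 in FB:dnAP-1 hearts and 32.76 and 23.46 in control hearts. The member of *ormdl3*, a regulator of sphingolipid synthesis, came nearest to the limit of the rule with a difference of -0.42. It had maxima of 24.48 and 21.76 in FB:dnAP-1 hearts and 31.50 and 17.94 in control hearts. After centring the groups did not overlap there, with -0.69 and -0.83 in FB:dnAP-1 hearts and -0.06 and -0.62 in control hearts. The last 2 members carried regions of *zdhhc18b*, of the palmitoyltransferase family, and *nrn1a*, which encodes neuritin, with differences of -0.24 and 0.31.

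None of the genes listed for Epi/FBs, endocardium, macrophages and blood, AP-1 subunits, the Tead and Yap pathway or the Stat pathway had a region inside a member. Only few of them could have been found, since the regions read included 6 of 26 Epi/FB genes, 3 of 16 endocardial genes, 3 of 10 Tead and Yap genes, 3 of 8 Stat genes and none of the 11 genes of either other list. Regions of *aldh1a2*, *twist1b* and *nppc* lay in shared sites that were not members.

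The shape of a site was measured in each library as the ratio of its maximum to its mean coverage, which is free of the scaling. Members were flatter than wide stable sites in every library. Their median ratio was 3.31 and 3.18 in FB:dnAP-1 hearts, against 4.56 and 4.59 at wide stable sites of the same libraries. In control hearts it was 2.92 and 2.76 at members, against 3.71 and 3.36 at wide stable sites. The difference was -0.41 ± 0.11 on the log2 scale (SD, n = 4 libraries), a 1.32-fold lower ratio, in the same direction in 4 of 4 libraries. Width was part of the rule, and the median ratio was larger in each wider class without a break at 2500 bp, so this difference is a description and has no test. At stable sites in FB:dnAP-1 replicate 1 the median ratio was 2.75 up to 1500 bp, 3.45 between 2000 and 2500 bp and 5.72 above 6000 bp. In control replicate 2 it was 2.39, 2.84 and 3.89 in the same classes. Among the members themselves, Spearman's rho of width with the mean ratio was 0.29 and that of height with the ratio 0.39. Both are across sites that share the 4 libraries and are given as descriptions.

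**Figure D3:**
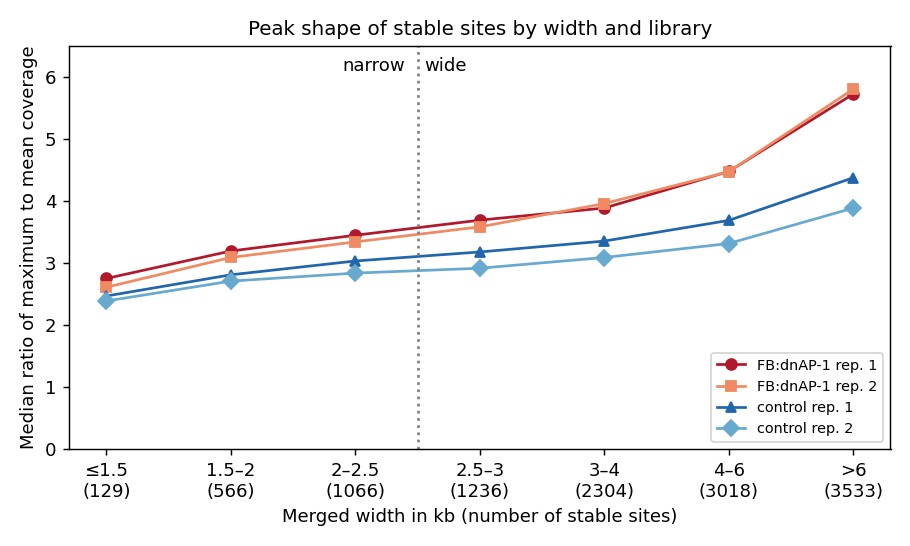
Median ratio of maximum to mean coverage (no unit) at stable sites in each library, by merged width in kb, with the number of sites below each class and the width limit of the members as a dotted line. The ratio rises with width in all 4 libraries, from 2.39 to 2.75 in the narrowest class, and both FB:dnAP-1 lines lie above both control lines.

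Compared with the 321 narrow shared sites that were not stable, members differed in shape by less. The median ratio of the narrow changed sites was 3.01 and 2.87 in FB:dnAP-1 hearts and 2.81 and 2.74 in control hearts. Members had the higher ratio in 4 of 4 libraries, by 0.09 ± 0.07 on the log2 scale (SD, n = 4). No test is given, since the rule set these sites apart by their maxima.

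Both FB:dnAP-1 medians of the ratio at members lay above both control medians. The ratio was 1.14-fold higher in FB:dnAP-1 hearts, a log2 difference of 0.19. At wide stable sites the same difference was 0.37. The ratio contains the maximum, whose difference between groups the rule limits at both kinds of site, so these values are given without a test. At single sites, the ratio of both FB:dnAP-1 libraries exceeded that of both controls at 735 members (41.7%), while 48.8% of all shared sites met this. The reverse was seen at 111 members (6.30%), against 5.10% of all shared sites. The number of steps in the median maximum moved with these differences, at 64 and 64 in FB:dnAP-1 hearts against 29 and 22 in control hearts, and its part in them was not tested.

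Other measures of signal gave other centres. By maximum coverage the median centred difference of the members was 0.00, as the rule sets it. By total signal it was 0.12, and by mean signal per base 0.17 (FB:dnAP-1 minus control). At wide stable sites these medians were 0.05 and 0.004. Of the members, 1596 (90.6%) would also have had a difference below 0.5 by total signal and 1451 (82.4%) by mean signal. These shares were 83.2% and 83.6% of wide stable sites, and 76.2% and 76.5% of all shared sites. These measures come from the contrast that chose the members and support nothing further.

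The sharpest member, with a mean ratio of 5.61, lay on chromosome 1 from 51736511 to 51738211. Its ratio was 5.88 and 5.70 in FB:dnAP-1 hearts and 5.78 and 5.12 in control hearts, so the groups overlapped. The second, on chromosome 7 from 16032320 to 16034306, combined sharpness and height. Its ratios were 7.50 and 5.86 in FB:dnAP-1 hearts and 6.29 and 3.39 in control hearts. Its maxima were 125.80 and 99.28 in FB:dnAP-1 hearts and 85.68 and 62.10 in control hearts. The centred heights of 1.67 and 1.36 in FB:dnAP-1 hearts overlapped those of 1.39 and 1.17 in control hearts. The flattest member was 936 bp wide, on chromosome 21 from 1346300 to 1347235. Its maximum was less than 2 times its mean on average over libraries, with ratios of 1.87 and 2.07 in FB:dnAP-1 hearts and 1.71 and 1.60 in control hearts. A mean ratio of 4 or more was found at 163 members (9.26%), compared with 39.9% of all shared sites, and one below 2.5 at 251 members (14.3%), compared with 6.03%.

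The rule did not use where within a site the maximum lay. At most members the 4 libraries placed it close together. The median distance between the positions of the maximum was 25.0 bp between the FB:dnAP-1 replicates and 54.5 bp between the control replicates. For pairs of libraries from different groups it was 39.5 bp with control replicate 1 in either pair, and 47.0 and 47.5 bp with control replicate 2. Libraries of different groups thus agreed on the position better than the control replicates did with each other. The 6 pairs share 4 libraries, so no test was made. At 1015 members (57.6%) all 4 maxima lay within 150 bp, and at 101 members (5.74%) they spanned more than 500 bp. At wide stable sites these shares were 46.1% and 22.5%, and the median distances of the 6 pairs were 30.5 to 82.0 bp. A narrow site leaves less room for the maximum to move. As a share of the site's width, the distances were in fact larger at members, between 1.24% and 2.84%, than at wide stable sites, between 0.562% and 1.62%.

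Narrow changed sites have the width of members and allow a closer comparison. Their 4 maxima spanned a median of 164.5 bp, against 115.5 bp at members. Members were divided by height into 3 classes of 587, and narrow changed sites by the same limits of -0.10 and 0.38. In the lower class the median span was 184.0 bp at members and 223.75 bp at 170 narrow changed sites. In the middle class it was 93.0 bp at members and 150.25 bp at 84 narrow changed sites, and in the upper class 76.5 bp at members and 75.5 bp at 67 narrow changed sites. The span was thus smaller at higher sites of both kinds, narrow changed sites lay mostly in the lower class, and in the upper class the 2 medians were within 1 bp. These spans were not tested.

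The distances were not spread evenly. In bins of 20 bp, a width chosen after the values were seen, the number of comparisons at members summed over the 6 pairs of libraries fell to 311 between 120 and 140 bp, was 401 between 160 and 180 bp, and then fell to 48 between 320 and 340 bp. It was 68 in both of the next bins, from 340 to 380 bp. The bins from 120 to 140 bp and from 160 to 180 bp are a low and a high point of this sum. More members fell between 160 and 180 bp than between 120 and 140 bp in 5 of 6 pairs. These pairs make up the sum and share 4 libraries, so their agreement is no separate support. Between the FB:dnAP-1 replicates 63 members had a distance of 160 to 180 bp and 40 one of 120 to 140 bp. In the pairs between groups the counts for the same bins were 57 and 42, 72 and 57, 67 and 41, and 79 and 64. Between the control replicates they were 63 and 67, so the rise was absent there. At wide stable sites the summed counts were 1877 and 1560, and at narrow changed sites, with far fewer comparisons, 64 and 73.

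**Figure D4:**
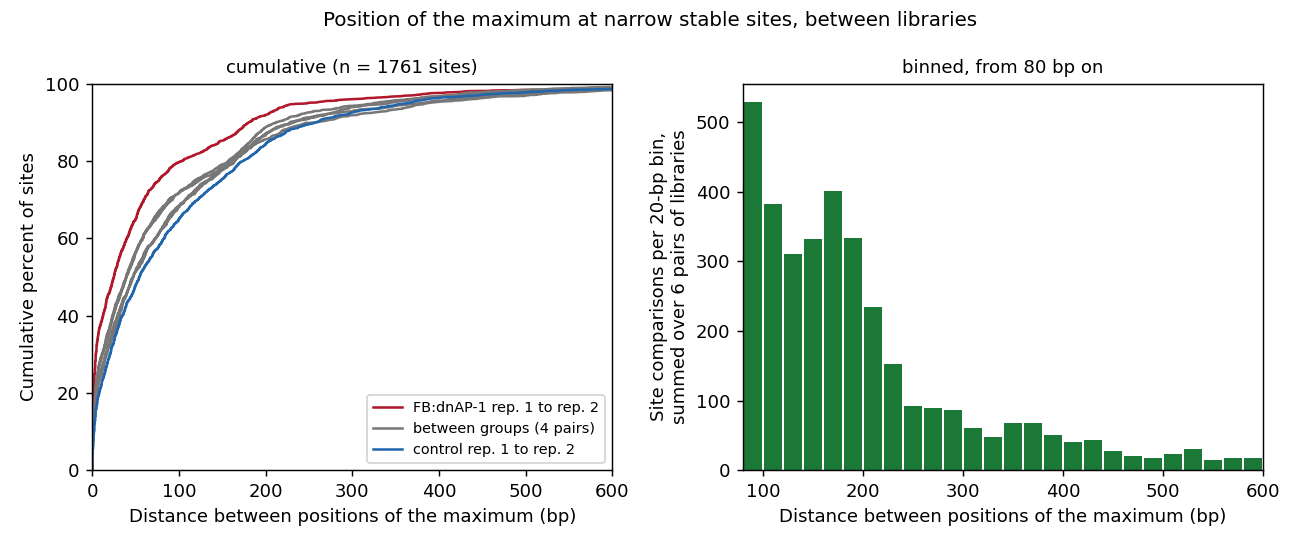
Distance in bp between the positions of the maximum in 2 libraries at the 1761 narrow stable sites, as cumulative percent of sites for each of the 6 pairs (left) and as counts per 20-bp bin summed over the 6 pairs, from 80 bp on (right). Between 75.4% and 85.2% of the members lie within 150 bp, depending on the pair, and the counts rise again to 401 between 160 and 180 bp.

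The maximum lay off the centre of the peak, but at most members nearer to the centre than to the edge. As a share of the distance from the centre to the edge, the median offset was 30.8% and 28.7% in FB:dnAP-1 hearts and 28.0% and 26.8% in control hearts. At wide stable sites it was larger, with 43.1% and 41.3% in FB:dnAP-1 hearts and 39.9% and 37.6% in control hearts. The plateau of the maximum itself was short, with median lengths of 3 and 4 bp in FB:dnAP-1 hearts and 7 and 9 bp in control hearts.

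The rule averages over replicates and limits the difference between them only indirectly. A large deviation in 1 library shifts the mean of its group and can exclude a site. The shares of large replicate differences below are thus set in part by the rule. The median size of the replicate difference at members was 0.18 on the centred log2 scale between the FB:dnAP-1 libraries and 0.23 between the controls. The median size of the difference between groups was 0.19. That difference is between means of 2 libraries, which vary less than single libraries, and the rule limits it. It is therefore not compared with the values between replicates. The control replicates differed by more than the FB:dnAP-1 replicates at 995 members (56.5%), against 56.9% of all shared sites. A difference of more than 1 between the control replicates was found at 4 members (0.227%), against 1.64% of all shared sites, and between the FB:dnAP-1 replicates at 1 member (0.0568%), against 0.530%. At such sites the small difference between groups is an average over unlike replicates. On chromosome 15, from 38230984 to 38233342, the maxima were 30.60 and 25.84 in FB:dnAP-1 hearts, between the control values of 16.38 and 33.12. On chromosome 7, from 48740994 to 48742513, they were 21.76 and 47.60 in FB:dnAP-1 hearts, on either side of the control values of 37.80 and 30.36.

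Across the members, Pearson's r of centred heights was 0.89 between the FB:dnAP-1 replicates, 0.79 between the control replicates and 0.81 to 0.86 between libraries of different groups. These describe 1761 sites that share the same libraries. For the ratio of maximum to mean, r of log2 values was 0.57 between the FB:dnAP-1 replicates, 0.42 between the control replicates and 0.37 to 0.50 between groups. The rule limits the difference in height between groups and not that in shape, so the 2 sets of coefficients are not compared.

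Stable by the rule does not mean without any ordered difference. Both FB:dnAP-1 heights lay above both control heights at 408 members (23.2%) and below both at 329 (18.7%), while 24.6% and 29.5% of all shared sites did so. The rule used this contrast, and nothing is read from the counts. Of the 1761 members, 1124 (63.8%) had a difference below 0.25, and of the 10091 wide stable sites 6249. Nothing particular to members is read from this.

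The limits of the rule cut through a continuum. The member with the largest difference, 0.499, lay on chromosome 13 from 36679036 to 36681240, with maxima of 59.16 and 55.08 in FB:dnAP-1 hearts and 46.62 and 20.70 in control hearts. Its control replicates differed by 0.92, more than the difference between groups. The narrow site just outside the limit, with a difference of -0.501, lay on chromosome 20 from 28454737 to 28456882, with 17.68 and 18.36 in FB:dnAP-1 hearts and 16.38 and 23.46 in control hearts. At the width limit, a member of 2500 bp lay on chromosome 15 from 4579737 to 4582236. It had maxima of 49.64 and 53.72 in FB:dnAP-1 hearts and 54.18 and 55.20 in control hearts. After centring, these were 0.33 and 0.47 in FB:dnAP-1 hearts and 0.73 and 1.00 in control hearts, a difference of -0.46. A stable site of 2501 bp on chromosome 8 from 12924604 to 12927104 had 74.12 and 73.44 in FB:dnAP-1 hearts and 76.86 and 42.78 in control hearts and was left out by 1 bp.

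Members stood somewhat farther from other shared sites than wide stable sites did. The median edge-to-edge distance to the nearest shared site was 14673 bp at members, 14789 bp at narrow changed sites and 10611 bp at wide stable sites. The medians of narrow sites of both kinds were thus close to each other. Width was part of the rule, and the distance had no break at 2500 bp. By width class the median was 14908 bp from 2000 to 2500 bp and 13755 bp from there to 3000 bp. It was 13839 bp from 3000 to 4000 bp, 11766 bp from 4000 to 6000 bp and 7063 bp above 6000 bp. The distances themselves depended on how many sites counted as shared. They were 32895 bp at members and 24915 bp at wide stable sites where peaks had to cover at least 50% of a site in every list, and 28578.5 and 21727 bp with the top 50% of each list. Of the members, 190 (10.8%) had a shared site within 1 kb, 718 (40.8%) within 10 kb, and 165 (9.37%) had none within 100 kb. At wide stable sites these shares were 13.8%, 48.8% and 6.12%. In 408 members (23.2%) no other shared site had its middle within 50 kb, against 17.1% of wide stable sites. Each spacing is a single value of one merged map, with no replicates, so these differences were not tested. When sites that fewer lists called were counted as well, the nearest site lay at a median of 3536 bp.

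**Figure D5:**
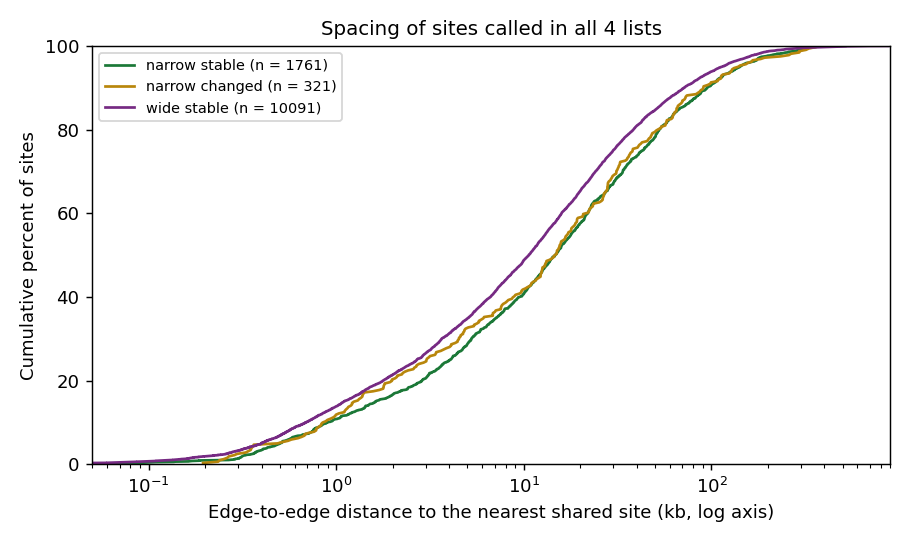
Cumulative percent of sites by edge-to-edge distance to the nearest shared site (kb, log axis) for narrow stable, narrow changed and wide stable sites. The curve of the narrow stable sites runs close to that of the narrow changed sites, with medians of 14673 and 14789 bp, and to the right of the wide stable sites at 10611 bp.

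The most isolated member lay on chromosome 18 from 43040260 to 43041910, at 517291 bp from the next shared site. Its maxima were 34.00 and 37.40 in FB:dnAP-1 hearts and 44.10 and 30.36 in control hearts. The next, on chromosome 24 from 28934410 to 28936118, was 415236 bp away from any shared site and had 34.00 in both FB:dnAP-1 libraries and 34.02 and 33.12 in control hearts. Both were near the median shared site in height, with mean centred values of 0.08 and -0.02. After centring, the FB:dnAP-1 heights lay below the control heights at each of them. On chromosome 18 they were -0.21 and -0.05 in FB:dnAP-1 hearts and 0.43 and 0.14 in control hearts, a difference of -0.42. On chromosome 24 they were -0.21 and -0.19 in FB:dnAP-1 hearts and 0.05 and 0.26 in control hearts, a difference of -0.36. The median centred height was 0.20 at the 190 members within 1 kb of a shared site and 0.06 at the 165 members beyond 100 kb, and their median ratios were 3.09 and 3.00. The span of the 4 maxima was 100.5 bp in the first of these sets and 137.5 bp in the second.

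The neighbour of a member was usually a wide site. The nearest shared site was wide stable at 1147 members (65.1%), wide changed at 346 (19.6%), narrow stable at 225 (12.8%) and narrow changed at 43 (2.44%). Over all shared sites these shares were 65.9%, 20.8%, 11.2% and 2.09%, so the neighbours of members had nearly the makeup of shared sites in general. The neighbour was higher in FB:dnAP-1 hearts by at least 0.5 at 110 members (6.25%) and lower by at least 0.5 at 279 (15.8%), against 6.98% and 15.9% over all shared sites. At 49 members (2.78%) both flanking shared sites were lower in FB:dnAP-1 hearts by at least 0.5, and at 7 members (0.398%) both were higher, against 3.06% and 0.484% over all shared sites. Spearman's rho between the difference of a member and that of its nearest neighbour was 0.07, and between their heights 0.05. Over all shared sites these were 0.11 and 0.04. The rule limits the difference of a member, so the values of rho for the difference are not compared. Counted in the order of shared sites, 1330 stood alone, 162 runs held 2, 31 held 3, 1 held 4 and 2 held 5.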

How the data were processed

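H3K27ac CUT&Tag peak lists of 4 libraries were analysed, with group and replicate taken from the labels. Reads had been trimmed by the authors (cutadapt 2.7), mapped to GRCz11 (Bowtie2 2.2.5), cleared of unmapped reads and duplicates, turned into coverage scaled by ChIPseqSpikeFree factors and used for peak calling per library. The methods name MACS2 and SEACR at 0.02, and the lists have the 6 columns of SEACR. The deposited values are signal, namely the summed and the maximum coverage of a peak after that scaling. Read totals and IgG libraries were not used here.

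Sites, heights and members were computed from the lists as described above. The mean coverage of a site was its total signal divided by the bases covered by peaks. Libraries were the replicates of means and SDs. No p-value is given, because most measures share the maximum or the width with the rule and the rest have no independent replicates. The sites printed by position were those of highest, sharpest, flattest and most isolated rank, those at the limits, those whose replicates differed most and those holding a named open region. The members and gene lists were chosen with earlier results of these data known. The code of the classification was run on simulated data, where all 1192 members planted among 6000 sites were recovered. The planted sites lay away from both limits of the rule and varied less between libraries than the real ones. This recovery therefore checks the code and says nothing about real sites near the limits. No sequence is printed, because a GRCz11 genome was not used. Scripts ran under Python 3.11.15 with pandas 2.3.3, numpy 2.4.6, scipy 1.17.1 and, for plots, matplotlib 3.10.9. The alternatives tried are given in the closing section.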

Additional observations from a re-analysis of the deposited data

How the results depend on the processing

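The 6 results were recomputed under 12 alternatives and with each library left out, which gave 97 values with the replicate block below. By a criterion set for each result, 82 counted as the same and 15 as moved. Only the results on the ratio of maximum to mean have a sign that could reverse, and it did not. The log2 ratio of maximum to mean, narrow over wide stable sites, stayed between -0.47 and -0.34, and its difference between groups at members between 0.16 and 0.23. Same-numbered libraries hardly deviated together from their group means (r = 0.06 over 1761 members). With 2 libraries per group, this value across sites cannot show whether same-numbered libraries were prepared together. With a replicate block, the difference in the log2 ratio between groups at members is again 0.19 by arithmetic, given 2 libraries per group. This value is counted among the 82 and is no check. The number of members was 716 with the top 50% of each list, 1124 with a difference below 0.25, 695 with a width up to 2000 bp and 2997 up to 3000 bp. With a library left out it was 1985 to 2790. The distance between positions of the maximum, averaged over the 4 pairs between groups, was 43.4 bp, 38.3 bp with the top 50% of each list and 38.75 to 52.75 bp with a library left out. The median distance to the nearest shared site was 16149 bp over all sequences, 32895 bp where peaks had to cover at least 50% of a site, 16016 bp after peaks within 500 bp were merged, 28578.5 bp with the top 50% of each list and 12086 to 14209 bp with a library left out. The replicate difference, averaged over the groups, was 0.21, and 0.26 by mean signal per base. The cause of these shifts was not tested. Height is known only in steps, and the control maxima of members comprised a median of 29 and 22 of them.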
